A study of Mus musculus with 11 samples.

Results

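The genes described here are 10 transcription factor genes with known roles in epidermal identity and keratinocyte differentiation in the mouse: *Trp63*, *Klf4*, *Klf5*, *Ovol1*, *Ovol2*, *Zfp750*, *Gata3*, *Cebpa*, *Prdm1* and *Ehf*. They were chosen by name for these roles, with earlier results of these data known. The same holds for the gene lists below, so their counts are not independent of these data. All 10 are among the 24421 gene symbols listed in the count tables, and all 10 passed edgeR's filter on low expression, which kept 14045 genes for testing.

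The outer skin is renewed from a basal layer of dividing keratinocytes, whose daughters move outward through spinous and granular layers, change their keratins, and end as dead cornified cells that form the barrier. p63, the product of *Trp63*, maintains the basal epithelial lineage, and factors such as KLF4, OVOL1, ZFP750 and C/EBPα act as cells leave that state and differentiate. GRHL3, a grainyhead-like factor that is deleted in the mutant mice of this study, is also known for its role in forming the epidermal barrier.

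RNA-seq was made from sorted epidermal keratinocytes of C57BL/6 mice (C57BL/6J in the study's methods) in 4 groups: WT unwounded (2 libraries), WT wounded (2), *Grhl3*-cKO unwounded (1) and *Grhl3*-cKO wounded (2). ATAC-seq, which reads out open chromatin, gave 1 peak list for each of the same 4 conditions, and 4 wounds from 2 mice were pooled for each. The mice were littermates of both sexes at 8 weeks of age. The study's methods name the WT mice *Krt14-Cre*-WT and the *Grhl3*-cKO mice *Krt14-Cre*-*Grhl3* fl/fl, so deletion was directed to cells that use the keratin 14 promoter. Beyond that name, the methods do not state the *Grhl3* alleles of the WT mice or whether they carried Cre. Wounded samples came from the 1 mm margin of 4 mm full-thickness punch wounds on day 3, and unwounded samples from distal skin. Cells were released with trypsin over 2 hours, sorted on CD49F (integrin α6), and depleted of cells bearing CD45, CD31 or TER119. The RNA-seq isolation had an n of 2 per genotype. Which libraries share an animal is not stated, so the P values below measure spread between these libraries.

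*Grhl3*, the targeted gene, was counted in every library. WT unwounded replicates 1 and 2 had 1893 and 1398 counts, WT wounded replicates had 1831 and 1388, the library labelled *Grhl3*-cKO unwounded had 1029, and those labelled *Grhl3*-cKO wounded had 1765 and 1491. In CPM, which scales each library to its total on genes, this was 122 and 83.2, 110 and 90.0, 76.2, and 116 and 104, in the same order. The libraries labelled *Grhl3*-cKO wounded thus lay within the range of the WT libraries, with a fitted log2 difference of 0.17 (SE 0.21) from WT wounded. The tables count whole genes, not exons, so they do not show whether the floxed exons were transcribed. The study describes its own check of the deletion, by qPCR across the floxed stretch and by staining of the protein, which is not among the files used here. The genotype is therefore given as labelled throughout, and each difference between genotypes is a difference between libraries with those labels.

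One library stood apart in a further way. The library labelled *Grhl3*-cKO unwounded held 14854 counts of *Xist* and 0 counts of the Y-linked genes *Ddx3y*, *Eif2s3y*, *Kdm5d* and *Uty*, whereas the other 6 libraries held 3 to 32 counts of *Xist* and 2580 to 3589 of the Y-linked genes. These sex-linked genes were picked after their values were seen. It is the only library of its condition, so its sex and its condition cannot be told apart.

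Sequencing depth was similar among libraries, from 13497283 to 16807451 counts on genes, and 3 counts corresponded to 0.178 to 0.222 CPM. That floor covers counting error only. Replicates of a group had a Pearson r of 0.953, 0.946 and 0.957 across genes on log2 CPM, and their spread exceeded counting error (chi-square per degree of freedom of 30.5, 41.9 and 36.8 for WT unwounded, WT wounded and *Grhl3*-cKO wounded).

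Marker genes matched the labelled cell type. Summed over 6 basal keratinocyte markers, the libraries held 32131 to 45727 CPM, with *Krt14* the most abundant, and 6 suprabasal markers, led by *Krt1*, summed to 3726 to 9576 CPM. Hair follicle markers were also present, at 2738 to 5444 CPM over 10 genes, with *Krt17* the most abundant, as were 8 sebaceous gland markers, led by *Scd1*, at 975 to 1285 CPM. Leukocyte markers summed to 7.23 to 39.6 CPM over 11 listed genes, led by *Cd74*, with *Cd3e* at 0 in all 7 libraries. Endothelial markers (12 genes, led by *Vwf*) summed to 3.48 to 32.1 CPM, and melanocyte markers (6 genes, led by *Kit*) to 3.75 to 12.7 CPM. Fibroblast markers (8 genes) summed to 37.1 to 113 CPM, mostly *Thy1*, and mural and muscle markers (6 genes) to 71.6 to 155 CPM, mostly *Cspg4*, which keratinocytes can also express. Among erythroid genes, *Hba-a1*, *Hba-a2*, *Hbb-bs* and *Hbb-bt* were at 0 in every library, and *Alas2* reached at most 13 counts.

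The 10 factors spanned a wide range of levels. Per kilobase of annotated exon, *Klf4* had the highest mean over the 7 libraries, at 475 CPM per kb, followed by *Trp63* at 123, *Klf5* at 118, *Zfp750* at 106, *Cebpa* at 72.5, *Gata3* at 65.5, *Ovol1* at 33.2, *Ehf* at 28.9, *Prdm1* at 3.31 and *Ovol2* at 2.45. The order holds only where neighbours are set apart by more than their spread among libraries. It also rests on the length used, which merges all annotated exons of a gene whether or not these cells use them. The lowest *Klf4* value, 353 CPM per kb, was above the highest of *Trp63*, 145. From *Trp63* through *Gata3* the ranges of neighbours overlapped. *Gata3* did not go below 52.4 CPM per kb and *Ovol1* did not go above 46.8, *Ovol1* and *Ehf* overlapped, *Ehf* did not go below 16.0 while *Prdm1* did not go above 4.28, and *Prdm1* and *Ovol2* overlapped.

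Within genes, the spread over the 7 libraries was smallest for *Klf5*, whose highest library was 1.17-fold above its lowest, and for *Trp63*, at 1.35-fold. It was largest for *Ovol2* (2.77-fold), *Ovol1* (2.55-fold), *Ehf* (2.34-fold), *Prdm1* (2.18-fold) and *Klf4* (2.16-fold). For *Klf4*, *Ehf*, *Prdm1* and *Ovol2*, the library at the extreme was the one labelled *Grhl3*-cKO unwounded, as the plot of the 10 factors by library shows.

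**Figure D1:**
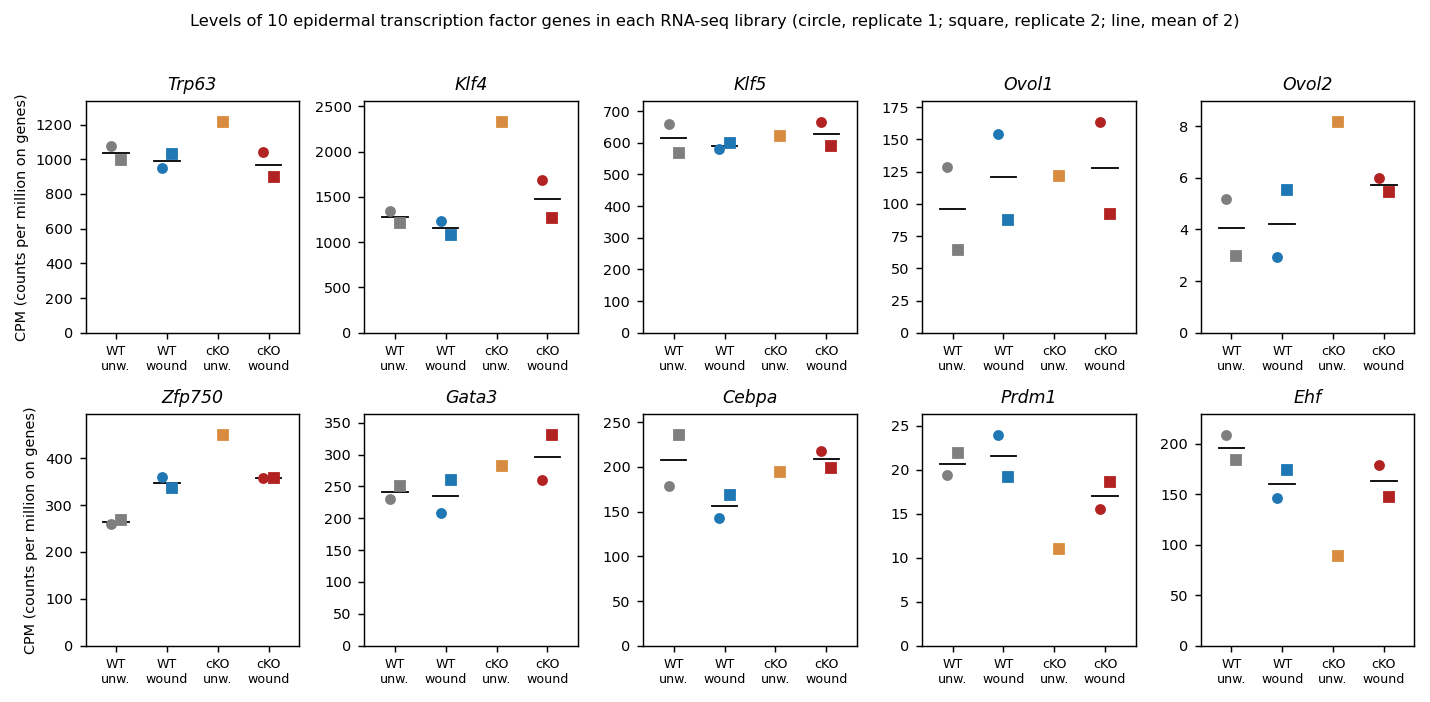
Each panel gives 1 gene, with its level in CPM (y axis, from 0) in the 7 RNA-seq libraries by condition (x axis). Circles are libraries titled replicate 1, squares are libraries titled replicate 2, and lines are means of 2 libraries, with *Grhl3*-cKO unwounded a single library. *Klf4* and *Zfp750* were highest in that library, at 2322 and 449 CPM, and *Ehf* and *Prdm1* were lowest there, at 89.0 and 10.97 CPM.

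*Trp63* encodes p63, which keeps keratinocytes in the epithelial lineage and supports basal cell renewal. It stood at 1074 and 995 CPM in WT unwounded replicates 1 and 2, at 948 and 1029 in WT wounded, at 1213 in the library labelled *Grhl3*-cKO unwounded, and at 1043 and 896 in those labelled *Grhl3*-cKO wounded. The WT unwounded, WT wounded and cKO wounded ranges all overlapped, and the cKO unwounded library was the highest. *Klf5*, a Krüppel-like factor of proliferating basal epithelium, stood at 660 and 569 CPM in WT unwounded, 581 and 598 in WT wounded, 623 in cKO unwounded and 664 and 589 in cKO wounded. No condition was set apart for *Klf5*. In bulk RNA, a level per library cannot tell fewer expressing cells from less RNA per cell, and this holds for every gene described here.

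*Klf4* encodes a Krüppel-like factor needed for the late steps of barrier formation. Its level was 1348 and 1206 CPM in WT unwounded, 1237 and 1077 in WT wounded, 2322 in cKO unwounded, and 1684 and 1267 in cKO wounded. The cKO unwounded library was the highest of the 7, the WT groups overlapped, and both cKO wounded libraries lay above both WT wounded ones, replicate 2 only by 1267 against 1237. *Zfp750* encodes a zinc finger factor downstream of p63 that turns on terminal differentiation genes and holds down progenitor genes. It was at 259 and 269 CPM in WT unwounded, 359 and 336 in WT wounded, 449 in cKO unwounded, and 357 and 358 in cKO wounded. WT wounded libraries were thus above WT unwounded ones without overlap, cKO wounded libraries lay beside WT wounded ones, and the cKO unwounded library was above all.

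*Ovol1* encodes a zinc finger repressor that helps keratinocytes stop dividing as they differentiate. It was at 128 and 64.1 CPM in WT unwounded, 154 and 87.4 in WT wounded, 121 in cKO unwounded, and 163 and 92.2 in cKO wounded. In each pair the library titled replicate 1 was above that titled replicate 2, and the means over the groups with 2 libraries were 149 CPM for replicate 1 and 81.2 CPM for replicate 2, so that the replicate number set the *Ovol1* level apart more than wounding or genotype. The lone cKO unwounded library, titled replicate 2, lay between them, and the labels differ on its number. *Ovol2*, a related repressor of mesenchymal genes in epithelia, was near the bottom of the range, with 49 to 110 counts per library. It was at 5.17 and 2.97 CPM in WT unwounded, 2.94 and 5.51 in WT wounded, 8.15 in cKO unwounded, and 5.98 and 5.46 in cKO wounded. WT wounded overlapped with each of the other groups of 2, while both cKO wounded libraries lay above both WT unwounded ones.

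*Gata3* encodes a zinc finger factor that acts in hair follicle lineage choice and in barrier lipid synthesis. It was at 231 and 251 CPM in WT unwounded, 208 and 260 in WT wounded, 282 in cKO unwounded, and 261 and 330 in cKO wounded. The cKO-labelled libraries were all above the WT libraries, the closest pair by 261 against 260 CPM. *Cebpa* encodes C/EBPα, which acts with C/EBPβ in the exit from the cell cycle at the start of differentiation. It was at 179 and 235 CPM in WT unwounded, 143 and 169 in WT wounded, 194 in cKO unwounded, and 218 and 199 in cKO wounded. WT wounded libraries were the lowest of the 7, and they overlapped with no other group.

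*Prdm1* encodes BLIMP1, a repressor found in sebaceous gland and in differentiating epidermal cells. It was at 19.4 and 21.8 CPM in WT unwounded, 23.9 and 19.1 in WT wounded, 10.97 in cKO unwounded, and 15.5 and 18.6 in cKO wounded. All cKO-labelled libraries were below all WT libraries, by 18.6 against 19.1 CPM at the closest. *Ehf* encodes an epithelial ETS factor. It was at 208 and 183 CPM in WT unwounded, 146 and 174 in WT wounded, 89.0 in cKO unwounded, and 178 and 147 in cKO wounded. WT unwounded libraries were the highest, the wounded libraries of both genotypes overlapped, and the cKO unwounded library was the lowest, at 0.455 of the WT unwounded mean.

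Comparing WT wounded with WT unwounded libraries asks how wound-front keratinocytes differ from resting ones. *Zfp750* was higher at the wound front, with a log2 difference of 0.42 (SE 0.15) and unadjusted P of 0.0132, and *Cebpa* was lower, at −0.38 (SE 0.18) and P of 0.0489. Adjusted over 14045 genes (edgeR quasi-likelihood, Benjamini-Hochberg), p was 0.843 and 0.984, so neither passed. *Ehf* followed, at −0.26 (SE 0.18, P of 0.164), and the remaining 7 factors had an unadjusted P of 0.302 or more. Among them *Ovol1* was at 0.35 with a P of 0.302, and at 0.38 with a P of 0.0376 when replicate number was a term of the fit. In all, 2 of 10 members had an unadjusted P under 0.05, beside 680 of the 14045 genes (4.84%), 1 on the higher side, with 446 genes (3.18%), and 1 on the lower, with 234 (1.67%), and 0 of 10 had an adjusted p under 0.05, beside 4 genes (0.0285%). DESeq2 also gave 2 members at an unadjusted P under 0.05 and 0 at an adjusted p under 0.05. The members' median log2 difference was −0.02, beside 0.0 over all genes tested. With each compared library left out in turn, the log2 difference ran from 0.38 to 0.45 for *Zfp750* and from −0.56 to −0.19 for *Cebpa*. For *Ehf* the range was −0.42 to −0.14, and for *Ovol1* −0.11 to 0.95. These fits leave a single library in a group, and neither *Zfp750* nor *Cebpa* stayed under an unadjusted P of 0.05 in all of them. Without the cKO unwounded library, chosen after seeing the data, *Zfp750* alone had an unadjusted P under 0.05. With 2 libraries a side an exact permutation test cannot go below a P of 0.333.

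Cell type markers also differed between these libraries. All 6 suprabasal keratinocyte markers were lower in wounded WT libraries, beside 49.2% of all genes tested, 4 of them with an unadjusted P under 0.05, with a median log2 difference of −0.45 and sums of 6379 and 7051 CPM in unwounded against 3726 and 5456 CPM in wounded libraries. The sum of the endothelial markers was 8.59 and 10.4 CPM in unwounded and 32.1 and 17.6 CPM in wounded WT libraries, 3 of 11 tested had an unadjusted P under 0.05, all higher, and counts of *Cdh5* went from 1 and 13 to 107 and 44. Leukocyte marker sums were 7.23 and 15.2 CPM in unwounded and 13.5 and 39.6 CPM in wounded WT libraries, with counts of *Lyz2* of 0 and 0 against 16 and 37. Of 6 leukocyte markers tested, 2 had an unadjusted P under 0.05, *Lyz2* and *Cd74*, both higher. The leukocyte sums overlapped between unwounded and wounded libraries, and so did those that follow. Fibroblast marker sums were 65.8 and 73.1 against 50.4 and 113 CPM, with 1 of 7 tested at an unadjusted P under 0.05, *Col1a2*, whose counts were 77 and 62 against 131 and 175. Mural and muscle sums were 131 and 124 against 144 and 87.4 CPM, where *Cspg4* had a log2 difference of −0.30 and *Acta2* counts were 9 and 39 against 275 and 154. *Acta2* was the 1 of 4 tested in this list with an unadjusted P under 0.05. Melanocyte sums were 7.55 and 3.75 against 12.7 and 7.46 CPM, with *Dct* counts of 12 and 4 against 79 and 37. Here 2 of 5 tested had an unadjusted P under 0.05, *Dct* and *Tyr*, both higher. Of 10 hair follicle markers 4 were higher and 6 lower, 1 and 3 of them with an unadjusted P under 0.05, with a median log2 difference of −0.22. *Krt17* was at 0.17, *Lhx2* at −0.87 and *Cd34* at −0.74, while 176 counts of *Krt25* were found in WT wounded replicate 1 and 0 in the other WT libraries. The part of these cells in the values of the 10 factors was not tested.

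Comparing the libraries labelled *Grhl3*-cKO wounded with WT wounded asks what the factors do at the wound front when *Grhl3* is targeted. *Cebpa* was higher in the cKO-labelled libraries, by 0.44 on the log2 scale (SE 0.18, P of 0.0259), *Klf4* by 0.38 (SE 0.17, P of 0.0387) and *Gata3* by 0.35 (SE 0.17, P of 0.0571). *Prdm1*, at −0.32 (SE 0.28, P of 0.276), was the lowest. All had an adjusted p of 1.0 (edgeR quasi-likelihood, Benjamini-Hochberg). Members with an unadjusted P under 0.05 were 2 of 10, beside 567 of the 14045 genes (4.04%), both on the higher side, where 275 genes lay (1.96%), and 0 on the lower side, where 292 lay (2.08%). An adjusted p under 0.05 was reached by 0 of 10 members and by 0 of the 14045 genes (0.0%). DESeq2 gave 3 members at an unadjusted P under 0.05, *Gata3* being the third, and 0 at an adjusted p under 0.05. With replicate number as a term of the edgeR fit, the same 3 members had an unadjusted P under 0.05. On direction alone 8 of 10 members were higher in the cKO-labelled libraries, beside 48.5% of all genes tested, with a median of 0.11, beside −0.01 over all genes tested. *Klf4* depended on single libraries: its log2 difference was 0.13 without cKO wounded replicate 1 and 0.60 without cKO wounded replicate 2. With each compared library left out in turn, the range was 0.32 to 0.59 for *Cebpa*, 0.20 to 0.54 for *Gata3* and −0.45 to −0.15 for *Prdm1*. These fits leave a single library in a group, and neither *Klf4* nor *Cebpa* stayed under an unadjusted P of 0.05 in all of them.

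Suprabasal markers were also higher in this comparison. They summed to 3726 and 5456 CPM in WT wounded and to 6835 and 8465 CPM in cKO wounded. Of these 6 genes, 5 had an unadjusted P under 0.05 and all 6 were higher, with a median log2 difference of 0.59. *Krt10* was at 1469 and 1986 CPM in WT wounded and at 2739 and 3520 CPM in cKO wounded. Its log2 difference was 0.87, with an adjusted p of 0.459 (edgeR quasi-likelihood, Benjamini-Hochberg). A different share of suprabasal cells in the sorted material and a different level in each cell cannot be told apart here. All 10 hair follicle markers were lower in cKO wounded, beside 51.2% of all genes tested, 3 of them with an unadjusted P under 0.05 and with a median of −0.32, while their sums overlapped, at 5043 and 3711 CPM in WT wounded and 2738 and 3715 CPM in cKO wounded. *Krt17*, which keratinocytes at wounds also express, was at 2326 and 1816 CPM in WT wounded and at 1096 and 1401 CPM in cKO wounded (log2 −0.71, P of 0.000755). *Acta2*, of the mural and muscle list, had 275 and 154 counts in WT wounded and 11 and 64 in cKO wounded (log2 −2.35). The part of these cells in the values of *Gata3* and the other factors was not tested.

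Taking all 4 wounded against all 3 unwounded libraries, with genotype as a further term, uses the WT libraries again and adds the cKO-labelled ones. *Klf4* was lower after wounding, at −0.34 on the log2 scale (SE 0.15, P of 0.0402), and its adjusted p was 0.71 (edgeR quasi-likelihood, Benjamini-Hochberg). *Prdm1* (0.29, SE 0.23) and *Cebpa* (−0.20, SE 0.15) followed with P of 0.216 and 0.223. It was 1 member of 10 at an unadjusted P under 0.05, beside 929 genes (6.61%), of which 411 were lower (2.93%) and 518 higher (3.69%), and 0 of 10 at an adjusted p under 0.05, beside 5 genes (0.0356%). DESeq2 gave the same counts of members, 1 and 0. The *Klf4* value rested on the cKO unwounded library, without which it was −0.12 (P of 0.52), *Zfp750* was 0.43, and *Ehf* turned from 0.16 to −0.26. Over all alternative settings of this comparison *Prdm1* ran from 0.09 to 0.42 and *Cebpa* from −0.38 to −0.05. The members' median was 0.0, beside 0.01 over all genes. Cell type markers with an unadjusted P under 0.05 in this comparison were 5 of 11 endothelial ones, all higher (median of the list 2.31), 3 of 7 fibroblast and 3 of 6 leukocyte ones, all higher (0.88 and 1.31), 2 of 4 mural and muscle ones higher and 1 lower (2.97), 3 of 6 suprabasal ones, all lower (−0.37), 5 of 10 hair follicle ones, all lower (−0.30), 2 of 7 sebaceous gland ones, both lower (−0.11), 1 of 5 melanocyte ones, *Dct*, higher (1.40), and 1 of 6 basal keratinocyte ones, *Krt15*, lower (0.07). Their part in the values of the factors was not tested.

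For the cKO-labelled libraries alone, wounding is described and was not tested, with 1 unwounded library. *Ehf* and *Prdm1* were higher in both wounded libraries than in the unwounded one, by 0.68 to 1.03 and 0.52 to 0.70 on the log2 scale. *Klf4* was lower in both, by −0.92 and −0.44, *Ovol2* by −0.61 and −0.41, *Trp63* by −0.49 and −0.19, and *Zfp750* by −0.37 and −0.30. None of the 10 was 2-fold from the unwounded library in both wounded ones, beside 1346 of 14045 genes (9.58%) that were. Set beside the WT change, *Zfp750* and *Ehf* went in opposite directions in the 2 genotypes in every library, as did 1464 of the 14045 genes (10.4%). The difference between genotypes was not tested. Markers also differed among these libraries. By the same rule 7 of 11 endothelial markers were higher, with sums of 3.48 CPM in the unwounded and 18.1 and 24.4 CPM in the wounded libraries, 4 of 7 fibroblast markers were higher (37.1 against 86.9 and 107 CPM), and 3 of 6 leukocyte markers (8.67 against 16.3 and 17.998 CPM). Of mural and muscle markers 2 of 4 were higher and 1 lower (155 against 74.2 and 71.6 CPM). Hair follicle markers were lower for 3 of 10 (3341 against 2738 and 3715 CPM), and suprabasal markers were past the rule for 0 of 6 (9576 against 6835 and 8465 CPM). The part of these cells in the values above was not tested.

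In unwounded skin, the cKO-labelled library was above both WT libraries for 5 of 10 members, beside 36.3% of all genes tested, and below both for 2, beside 34.5%. *Klf4* was 1.82-fold the WT mean, *Zfp750* 1.7-fold, *Trp63* and *Gata3* each 1.17-fold, and *Ovol2* 2.0-fold at low counts, while *Ehf* and *Prdm1* were at 0.455 and 0.532 of it. The log2 difference of *Klf4* from the WT libraries was 0.83 and 1.01, and that of *Ehf* −1.18 and −0.97, so each was past 2-fold against 1 of the WT libraries. By the rule that both must be 2-fold away, 0 of 10 members qualified, beside 1404 of 14045 genes (10%). Suprabasal markers summed to 9576 CPM in this library, the highest of the 7, against 6379 and 7051 in WT unwounded, with 4 of 6 above both WT libraries, *Krtdap* and *Dsc1* below both, and 0 past the rule. Sums were lower for endothelial markers (3.48 against 8.59 and 10.4 CPM, 2 of 11 past the rule), fibroblast markers (37.1 against 65.8 and 73.1, 2 of 7) and hair follicle markers (3341 against 5444 and 4413, 0 of 10 lower and 1 higher by the rule). In the follicle list 5 markers were above both WT libraries and 3 below both, with a median of 0.01. The lower sum came from the most abundant ones, *Krt17*, at 943 against 2101 and 1641 CPM, and *Krt79*, at 991 against 2038 and 1535, while *Lgr5* was at 101 against 56.3 and 62.4. *Krtdap*, *Krt79* and *Lgr5* are named here after their values were seen. The part of these cells was not tested either, and the difference has no replicate check.

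The same library had the highest level of immediate early genes, which respond within minutes to stimuli that include tissue dissociation. The 18 genes of this list, with *Jun* the most abundant, summed to 13784 and 12323 CPM in WT unwounded, 15170 and 13829 in WT wounded, 27078 in cKO unwounded, and 17964 and 15885 in cKO wounded. In CPM, 15 of 18 were higher in cKO unwounded than in both WT unwounded libraries, all but *Ier3*, *Hspa1a* and *Hspa1b*, which are named after their values were seen. On the TMM-scaled log2 CPM used for the 2-fold rule it was 17 of 18, 7 of them at least 2-fold, with a median log2 difference of 1.03, and 15 of 18 were lower in both cKO wounded libraries, with a median of −0.65. *Fos*, an AP-1 subunit, was at 1594 and 1625 CPM in WT unwounded, 3287 in cKO unwounded, and 2041 and 1932 in cKO wounded. *Btg2*, an antiproliferative gene, was at 466 and 474, 1420, and 646 and 799 CPM, in that order. *Klf4* is itself known as an early stress-responsive gene, and it had its highest value in the library where this list was highest. In the comparison of wounded libraries by genotype, 5 of the 18 had an unadjusted P under 0.05, all higher in the cKO-labelled ones, among them *Fos* (0.37), *Atf3* (0.43) and *Nr4a1* (0.43). In WT wounding it was 1 of 18, *Btg2* (0.39), and in the comparison of all libraries 3 of 18 were lower, with *Ier3* (−0.46), *Fosb* (−0.39) and *Fos* (−0.31). The part of this response in the *Klf4* values was not tested.

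**Figure D2:**
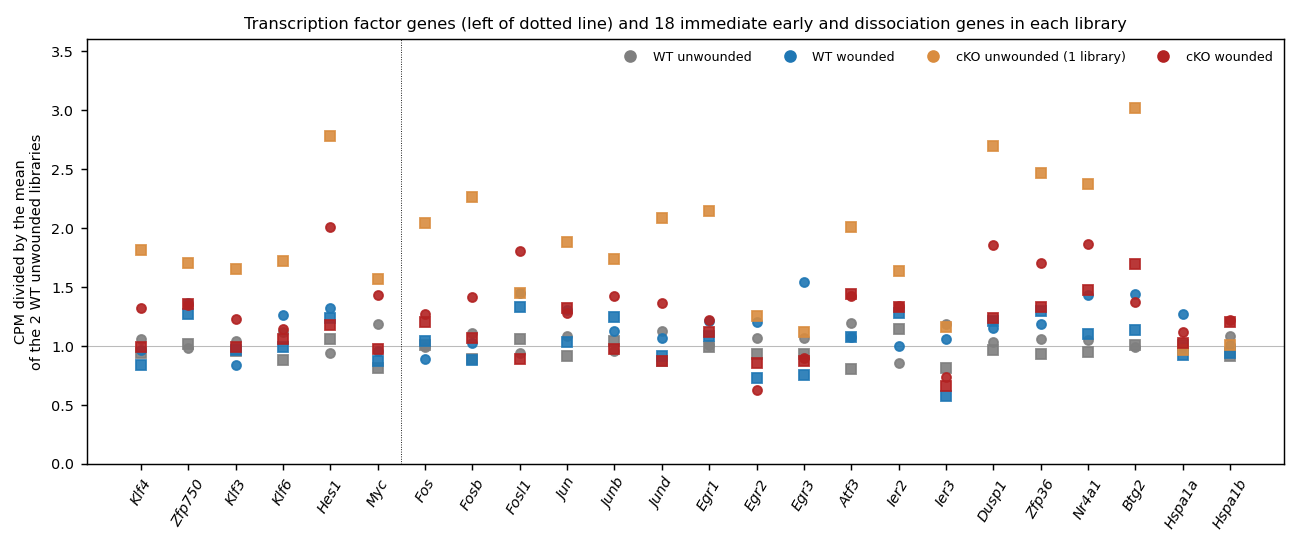
CPM of each gene divided by the mean of the 2 WT unwounded libraries (y axis, from 0), for 6 transcription factor genes left of the dotted line and 18 immediate early and dissociation genes right of it (x axis). The 6 are a selection: *Klf4*, *Zfp750*, *Klf3*, *Klf6*, *Hes1* and *Myc*, each above both WT unwounded libraries in the cKO unwounded one. They do not stand for all factors: *Ehf* and *Prdm1*, not shown, were at 0.455 and 0.532 in that library. Each point is 1 library, circles for replicate 1 and squares for replicate 2, colored by condition. The cKO unwounded library lies above both WT unwounded libraries for 15 of the 18 genes, and at 1.82 for *Klf4* and 1.7 for *Zfp750*.

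For the gene lists that follow, the shares of all 14045 genes with an unadjusted P under 0.05 on the higher and the lower side were 3.18% and 1.67% in WT wounding, 1.96% and 2.08% between genotypes, and 3.69% and 2.93% over all libraries. Among 28 other epidermal transcription factor genes, 2 had an unadjusted P under 0.05 in WT wounding, with a median log2 difference of −0.06. *Hopx*, a homeodomain protein of differentiating keratinocytes, went from 54.6 and 57.95 CPM to 43.8 and 36.1 (log2 −0.47), and *Maf*, which promotes differentiation, from 57.01 and 80.1 to 65.3 and 138 (log2 0.60), where the groups overlapped. Between genotypes at the wound front, 1 of 28 had an unadjusted P under 0.05: *Tfap2c*, an AP-2 factor of early surface ectoderm, at 121 and 120 CPM in WT wounded and 153 and 168 in cKO wounded (log2 0.44), which did not overlap. Over all libraries, 4 of 28 were lower after wounding, among them *Hopx* (−0.44), *Gata6* (−0.55), a factor of upper follicle and sebaceous duct, and the follicle stem cell factor *Sox9* (−0.37). *Klf6*, another Krüppel-like factor and the most abundant of the list, was at 1176 CPM in cKO unwounded and 602 to 865 CPM in the other libraries, and *Klf3* was at 264 against 133 to 196 CPM. The Notch target *Hes1* was at 353 against 120 to 256 CPM. These values of *Klf6*, *Klf3* and *Hes1* were picked after they were seen. Of the 28, 1 was past the 2-fold rule on each side in cKO unwounded against WT unwounded, beside 10% of all genes past it on either side.

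Of 14 cofactors and ubiquitin ligases that act with or on these factors, 0 had an unadjusted P under 0.05 in either edgeR test of wounding, and medians were −0.06 and 0.0. Between genotypes, 1 did: *Satb1*, a chromatin organizer downstream of p63, was at 30.1 and 42.4 CPM in WT wounded and 59.0 and 51.2 CPM in cKO wounded (log2 0.63, P of 0.0145), with no overlap. *Kmt2d*, a histone H3 lysine methyltransferase and the most abundant of the list, was at 711 to 936 CPM in all 7 libraries.

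The 18 basal genes that depend on p63 held some of the larger differences among the epidermal lists. In WT wounding, 5 had an unadjusted P under 0.05 on the higher side and 1 on the lower, with a median of 0.20. *Lama3*, a laminin chain of the basement membrane, went from 361 and 355 to 516 and 1122 CPM. This is a log2 difference of 1.22, with an adjusted p of 0.169 (edgeR quasi-likelihood, Benjamini-Hochberg). WT wounded replicate 2 was the higher of its group. *Krt15*, a keratin of resting basal cells, went from 2881 and 2751 to 2189 and 2010 CPM (log2 −0.40). Between genotypes 3 of 18 had an unadjusted P under 0.05, all lower in cKO wounded, among them *Lama3* at 576 and 478 CPM (log2 −0.61) and the integrin gene *Itgb1* at 435 and 319 (−0.56). For *Lama3*, WT wounded replicate 1 and the cKO wounded libraries were closer to each other than to WT wounded replicate 2. In the comparison of all libraries 3 were higher and 1 lower. The 6 basal keratinocyte markers are part of this list, and *Krt15* is the lower gene in both comparisons of wounding. *Trp63* itself had a log2 difference of −0.04, 0.0 and −0.16 in these 3 comparisons.

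Of 15 spinous differentiation genes, led in abundance by *Dsp*, 5 had an unadjusted P under 0.05 in WT wounding, all lower, and 5 between genotypes, all higher in the cKO-labelled libraries. The desmosomal cadherin *Dsc1* went from 145 and 164 to 91.4 and 105 CPM in WT wounding (log2 −0.63), and *Dsg1a* stood at 361 and 443 CPM in WT wounded and 544 and 605 in cKO wounded (log2 0.53). Medians were −0.18 and 0.12. Over all libraries 1 was higher and 3 lower, among them *Sbsn* (−0.47). This list holds all 6 suprabasal markers given above. Of its other 9 genes, 1 was lower in WT wounding, 0 passed between genotypes, and 1 was higher over all libraries, at an unadjusted P under 0.05.

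Of 30 granular and cornified envelope symbols, *Flg* was not listed, the loricrin gene was listed as *Lor* and not under its longer symbol, *Sprr2a1* was at 0 in all libraries, and 25 were tested. In WT wounding 4 were lower and 1 higher at an unadjusted P under 0.05, and between genotypes 3 were higher. The protease gene *Asprv1* went from 48.7 and 47.7 CPM in WT unwounded to 27.7 and 24.97 in WT wounded, and stood at 58.2 and 47.6 in cKO wounded (log2 −0.85 and 1.03). The transglutaminase gene *Tgm5* went from 68.7 and 99.0 to 45.3 and 44.1 CPM in WT wounding (−0.88), the lipid transporter gene *Abca12* from 294 and 302 to 218 and 217 (−0.43), and the fatty acid elongase gene *Elovl4* was higher in cKO wounded by 0.57. *Hrnr* had 0 and 7 counts in WT wounded and 69 and 11 in cKO wounded. After wounding in all libraries 3 were higher, among them *Sprr1b* (1.06) and *Sprr2h* (2.29), and 2 lower. *Ppl* had the highest mean, 909 CPM. Medians were −0.07, 0.08 and −0.13.

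Of 12 mesenchymal genes, whose repression is the known work of OVOL factors, *Cdh2* was at 0 in all libraries and 10 were tested. In WT wounding 3 were higher at an unadjusted P under 0.05, with a median of 0.45. *Vim* went from 8.39 and 9.52 to 15.4 and 29.2 CPM (log2 1.34), *Tgfbi* from 476 and 528 to 618 and 853 (0.58), and *Fn1* from 36.6 and 31.8 to 76.7 and 31.1 (0.68), where the groups overlapped. Between genotypes 1 was lower, *Tgfb2*, at 17.7 and 15.8 CPM in WT wounded and 8.54 and 4.62 in cKO wounded (−1.31). Over all libraries 2 were higher. For *Vim* the log2 difference was 1.91, with an adjusted p of 0.0746 (edgeR quasi-likelihood, Benjamini-Hochberg). The EMT factor gene *Twist1* had 0 to 16 counts and *Zeb2* 0 to 54. Fibroblast and endothelial cells also express *Vim* and *Fn1*. In WT wounded libraries the sum of endothelial markers was higher and that of fibroblast markers went both ways, as given above, and the part of these cells was not tested. No gene of any list in this report had an adjusted p under 0.05 in the 3 tested comparisons (edgeR quasi-likelihood, Benjamini-Hochberg).

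The gene whose pattern was most like that of each factor was sought among 8455 other tested genes with a mean of at least 10 CPM, by Pearson r of log2 CPM over the 7 libraries. The best of so many genes over so few libraries is always high, so these values are descriptions. *Klf4* was closest to *Ddx3x* (r = 0.991, Spearman rho = 0.964), with 20 genes above 0.95. Without the 2 libraries farthest from the median r was 0.826, so part of that likeness rested on them. *Ddx3x* is X-linked, and both genes were highest in the cKO unwounded library (*Ddx3x* at 1209 CPM), the one with *Xist* and without counts of the Y-linked genes. Without that library r was 0.971, and the part of sex was not tested. *Ovol1* was closest to *Rnf217* (r = 0.991, rho = 1.0), which ran from 83.4 to 118 CPM and was also higher in each library titled replicate 1 than in its replicate 2. *Trp63* was closest to *Gsk3b* (r = 0.981), *Zfp750* to *Adcy6* (r = 0.978), *Gata3* to *Clca3a2* (r = 0.979) and *Cebpa* to *Slc35c2* (r = 0.989). *Ehf* was closest to *Dnajb11* (r = 0.987), *Prdm1* to *Etv3* (r = 0.983), *Klf5* to *Spata2* (r = 0.973) and *Ovol2* to *Chmp5* (r = 0.985). Without the cKO unwounded library r was 0.935 for *Prdm1* and *Etv3* and 0.953 for *Ehf* and *Dnajb11*, the lowest values of the 10 pairs.

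Open chromatin around the factors was read from the 4 ATAC-seq peak lists on mm10. They differ in length, with 10769 peaks in WT unwounded, 36872 in WT wounded, 29364 in the list labelled *Grhl3*-cKO unwounded and 22474 in that labelled *Grhl3*-cKO wounded, so a peak is more easily listed in some than in others. In or within 5 kb of the gene, 6 of 10 members had a peak in WT unwounded, beside 51.1% of the 12946 tested protein-coding genes, and 9 of 10 in each of the other lists, beside 85.2% in WT wounded, 81.7% in cKO unwounded and 69.3% in cKO wounded. Of the 10, 3 (*Trp63*, *Klf4* and *Ovol2*) had a peak in WT wounded and none in WT unwounded, beside 34.4% of those genes, and 6 had one in all 4 lists, beside 48.3%. The number of peaks was 6, 22, 19 and 15. The members' median span was 21.7 kb, beside 24.4 kb. With every list shortened to the 10769 peaks with the smallest p, 6, 3, 6 and 6 members had a peak, beside 51.1%, 45.5%, 47.9% and 45.8% of the tested protein-coding genes, in the order WT unwounded, WT wounded, cKO unwounded and cKO wounded. There is no replicate, and none of these differences has a test.

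Merged over the lists, the peaks near members made 26 regions. Of these 6 were in all 4 lists, beside 22.2% of 42952 regions merged the same way across the genome, 7 in all but WT unwounded, 5 in WT wounded only, 3 in cKO unwounded only, 1 in cKO wounded only, 3 in WT wounded and cKO unwounded, and 1 in both wounded lists only. In WT wounded and not in WT unwounded were 16 of 26, beside 61.4% of the regions across the genome, and 10 of these 16 were also in cKO unwounded, beside 55.1%. By position, 11 lay in introns, 9 reached an exon, 4 lay upstream and 2 downstream, and 8 covered an annotated transcription start. Counts given without a share across the genome describe these 26 regions only. The map of peaks by condition shows them for each gene.

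**Figure D3:**
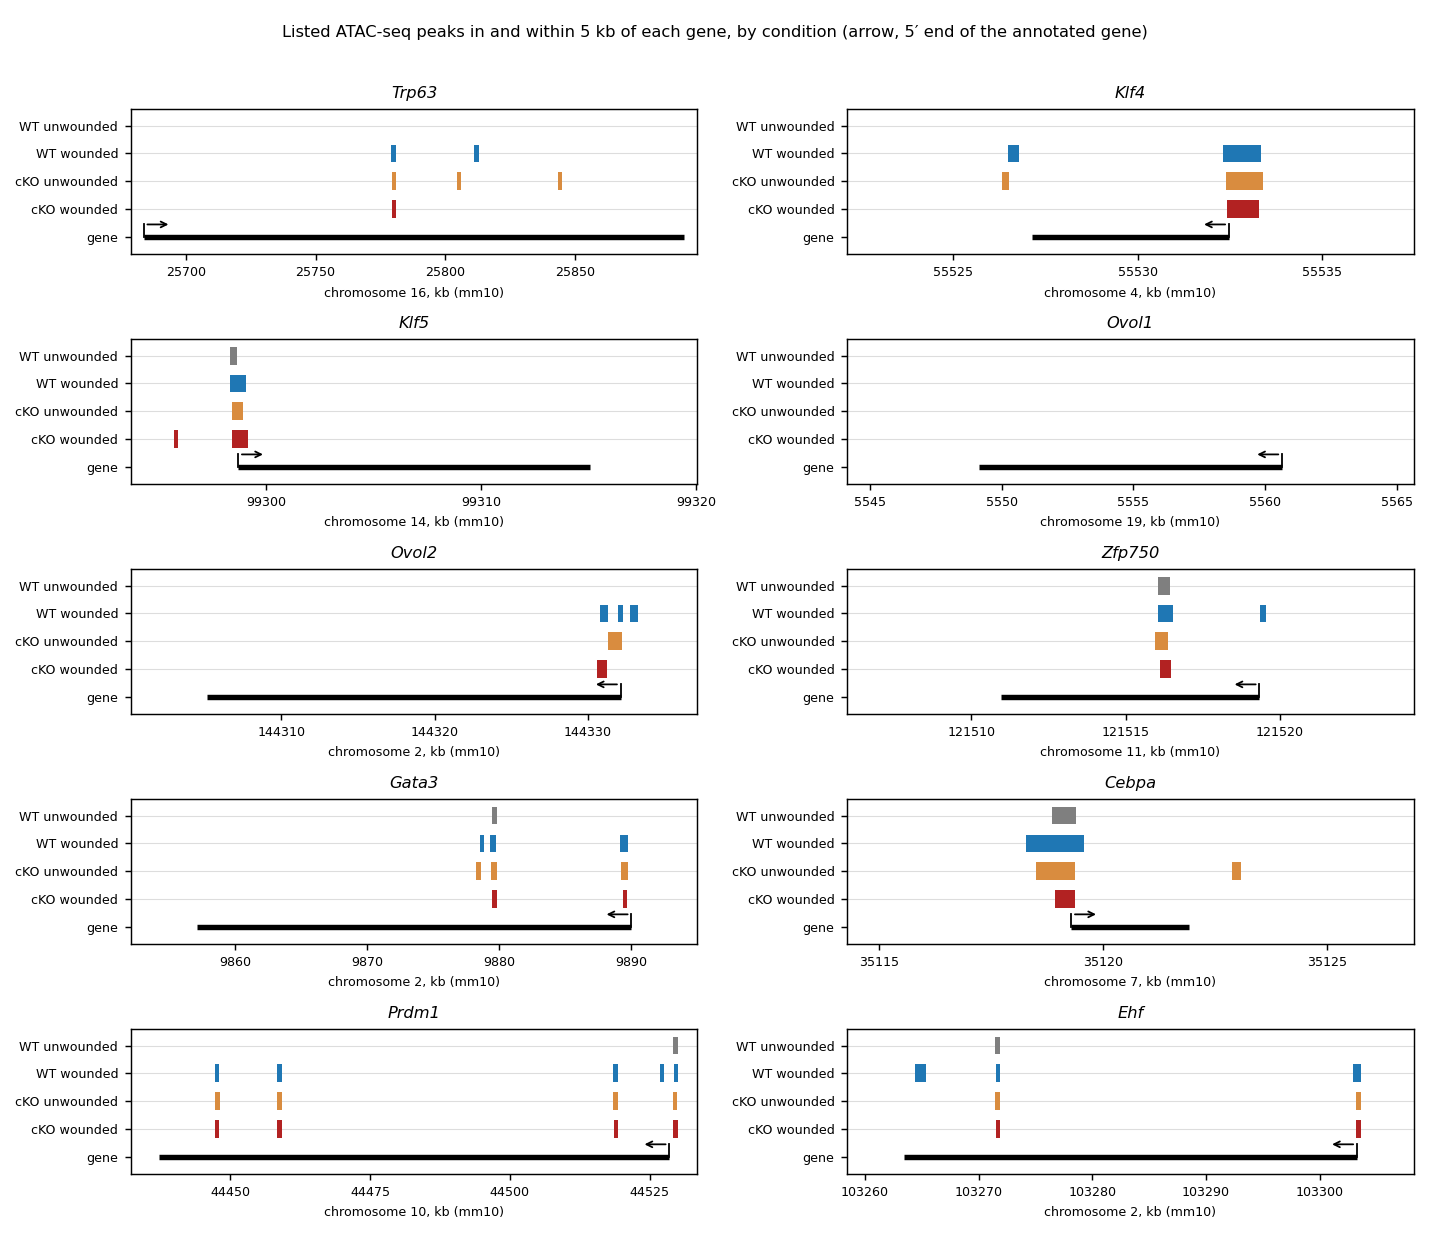
Peaks of the 4 ATAC-seq lists (1 line of bars each, to scale) along each gene and 5 kb on either side (x axis, kb on mm10), with the annotated gene in black and an arrow at its 5′ end. Within these 5 kb *Ovol1* has no peak in any list, *Trp63*, *Klf4* and *Ovol2* have none in the WT unwounded list, and 6 regions are in all 4 lists.

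The 6 regions shared by all lists lay at *Klf5*, *Zfp750*, *Gata3*, *Cebpa*, *Prdm1* and *Ehf*. Fold enrichment over local background, as deposited, is given for them in the order WT unwounded, WT wounded, cKO unwounded and cKO wounded. At *Klf5* the region chr14:99298299-99299165 covered the transcription start, except that the WT unwounded peak ended 37 bases before it, with a fold enrichment of 3.97, 4.92, 5.10 and 4.96. At *Cebpa*, chr7:35118292-35119572 covered the start, with 3.52, 3.75, 4.15 and 4.80. The WT unwounded list had the lowest value at both. At *Prdm1*, chr10:44529292-44530074 lay 791 bases upstream of the start, with 4.36, 4.25, 6.03 and 4.01, the cKO unwounded value being the highest. *Ehf* had an intronic region, chr2:103271497-103271882, with 4.50, 5.47, 5.17 and 5.41, and *Zfp750* one at chr11:121515939-121516540, with 4.49, 4.02, 4.33 and 4.76. *Zfp750* lies inside *Tbcd*, on the other strand, so this region is as much within that gene. At *Gata3*, chr2:9879335-9879832 was intronic, with 3.62, 4.07, 4.16 and 3.41.

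The 7 regions listed in all conditions but WT unwounded were spread over *Trp63*, *Klf4*, *Gata3*, *Prdm1* and *Ehf*. *Prdm1* had 3 of them, at chr10:44447259-44447899, chr10:44458544-44459052 and chr10:44518670-44519238. The second of these covers an internal start of *Prdm1* and had the highest fold enrichment, 5.26 in WT wounded, 5.14 in cKO unwounded and 6.02 in cKO wounded. At *Klf4*, chr4:55532301-55533383 covered the start, with 3.33, 3.39 and 3.65 in those lists, and at *Ehf*, chr2:103302973-103303690 covered the first start, with 3.90, 3.65 and 3.79. At *Gata3*, chr2:9889166-9889791 lay 211 bases downstream of the nearest annotated start, with 4.47, 4.36 and 4.75. At *Trp63*, chr16:25779846-25780390 lay in an intron 21526 bases upstream of the nearest annotated start, with 3.99, 4.09 and 3.77. The remaining regions were weaker or held in fewer lists. Those in WT wounded alone were at *Trp63* (3.48), *Ovol2* (3.04), *Zfp750* (3.47), *Prdm1* (3.07) and *Ehf* (4.43), and those in cKO unwounded alone were at *Trp63* (3.10 and 3.30) and *Cebpa* (2.68). *Klf5* had 1 in cKO wounded alone (3.03).

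In the lists as deposited, a peak and the RNA level did not always go together. *Klf4* had the highest RNA level per kb of the 10 in WT unwounded (419 CPM per kb) with no peak in or within 5 kb of it in that list. *Ovol1*, at 27.6 CPM per kb, had no peak in or within 5 kb of it in any list. *Ovol2*, the lowest at 2.001 CPM per kb in WT wounded, had 3 peaks in that list. This depends on the distance: at 10 kb, all 10 members, *Ovol1* among them, had a peak in WT wounded and in cKO unwounded. The WT wounded list is the longest, and shortened to 10769 peaks it kept 3 near members, none of them at *Ovol2*. The smallest p there were at *Klf5*, *Ehf* and *Prdm1* (−log10 p of 11.6, 9.95 and 8.93), while the *Ovol2* peaks had 3.62 to 5.07. Whether the lack of a peak within 5 kb at *Klf4* and *Ovol1* follows from the length of the lists was not tested.

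The sequences of the 6 regions shared by all lists are printed because these regions were listed in every condition, in the lists as deposited. Under other peak settings the number of shared regions ran from 2 to 7, with 2 for lists of equal length. Each sequence is a window of up to 300 bases around the middle of the part common to all 4 lists, from the mm10 genome, 5′ to 3′ on the strand of the gene, kept outside annotated untranslated regions. For *Klf5*, *Zfp750*, *Gata3* and *Ehf* the common part is shorter than 300 bases, at 242, 266, 186 and 186, so these windows run past it on both sides. Capitals mark matches on either strand to any of 7 short motifs, where N is any base: GRHL AACCNGTT, AP-1 TGANTCA, KLF CCNCNCCC, p63, a pair of CATG cores 6 bases apart, C/EBP TTGCNNAA, GATA factors (AGATAA) and ETS factors (AGGAAG). No match overlapped a match to a different motif. The windows are chr14:99298384-99298683 (+) for *Klf5*, chr11:121516089-121516388 (−) for *Zfp750*, chr2:9879508-9879807 (−) for *Gata3*, chr7:35119002-35119292 (+) for *Cebpa*, chr10:44529429-44529728 (−) for *Prdm1* and chr2:103271526-103271825 (−) for *Ehf*.
*Klf5*: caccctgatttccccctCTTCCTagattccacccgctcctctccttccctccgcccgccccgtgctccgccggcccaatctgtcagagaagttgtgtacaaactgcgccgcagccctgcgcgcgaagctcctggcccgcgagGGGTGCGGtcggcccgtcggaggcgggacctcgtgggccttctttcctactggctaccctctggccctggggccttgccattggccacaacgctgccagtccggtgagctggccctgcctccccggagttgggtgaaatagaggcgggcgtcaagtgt
*Zfp750*: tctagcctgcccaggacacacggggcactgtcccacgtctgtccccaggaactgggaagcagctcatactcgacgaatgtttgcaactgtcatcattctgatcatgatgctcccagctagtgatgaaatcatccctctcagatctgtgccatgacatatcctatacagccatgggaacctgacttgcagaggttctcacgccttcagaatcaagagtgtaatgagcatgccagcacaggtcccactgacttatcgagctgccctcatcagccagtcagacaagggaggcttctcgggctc
*Gata3*: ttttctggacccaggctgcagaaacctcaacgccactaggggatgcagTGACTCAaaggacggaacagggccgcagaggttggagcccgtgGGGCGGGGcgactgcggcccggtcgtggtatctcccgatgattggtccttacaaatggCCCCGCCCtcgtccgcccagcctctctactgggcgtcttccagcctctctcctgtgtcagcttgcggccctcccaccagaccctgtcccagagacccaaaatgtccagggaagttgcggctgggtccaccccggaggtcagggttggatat
*Cebpa*: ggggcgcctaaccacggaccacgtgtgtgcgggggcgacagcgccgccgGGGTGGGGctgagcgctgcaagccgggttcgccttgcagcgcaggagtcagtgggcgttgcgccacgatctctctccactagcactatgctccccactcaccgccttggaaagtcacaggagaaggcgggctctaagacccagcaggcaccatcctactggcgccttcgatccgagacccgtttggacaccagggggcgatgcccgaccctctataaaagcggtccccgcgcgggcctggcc
*Prdm1*: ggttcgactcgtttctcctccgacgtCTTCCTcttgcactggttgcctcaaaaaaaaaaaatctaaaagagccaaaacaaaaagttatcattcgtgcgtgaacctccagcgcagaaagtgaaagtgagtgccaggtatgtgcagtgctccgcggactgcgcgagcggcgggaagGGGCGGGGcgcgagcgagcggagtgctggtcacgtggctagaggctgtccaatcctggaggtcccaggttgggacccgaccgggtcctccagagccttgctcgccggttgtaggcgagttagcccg
*Ehf*: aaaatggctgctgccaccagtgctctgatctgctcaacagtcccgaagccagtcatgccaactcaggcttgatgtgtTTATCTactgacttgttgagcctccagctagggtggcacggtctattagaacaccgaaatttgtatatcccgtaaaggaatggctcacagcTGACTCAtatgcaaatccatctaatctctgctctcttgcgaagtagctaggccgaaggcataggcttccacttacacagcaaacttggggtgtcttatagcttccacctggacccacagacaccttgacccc

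KLF matches were in 4 of the 6 windows (*Klf5*, *Gata3*, *Cebpa* and *Prdm1*), beside 53.2% of the 9521 windows taken the same way from regions in all 4 lists across the genome. AP-1 matches were in 2, *Gata3* and *Ehf*, both reading TGACTCA, beside 24.8%, ETS matches in 2, *Klf5* and *Prdm1*, beside 33.1%, and a GATA match in *Ehf*, beside 10.1%. The AP-1 match of *Gata3* and the ETS match of *Klf5* lie outside the part common to all 4 lists, and the others inside it. GRHL, p63 and C/EBP matches were in 0 of 6, beside 3.39%, 0.851% and 10.9% of the windows. The *Zfp750* window held none of the 7. GC content was 67.0% for *Klf5*, 53.0% for *Zfp750*, 63% for *Gata3*, 67.4% for *Cebpa*, 58.3% for *Prdm1* and 49.7% for *Ehf*, so the KLF matches were in the 4 windows richest in G and C. These matches describe letters and say nothing of binding, and a window without a match may lie beside one.

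Promoters from 250 bases before to 50 bases after the start, from the RefSeq table on the same build, were available for 5 of the 10 members: *Klf4*, *Ovol2*, *Gata3*, *Cebpa* and *Prdm1*. KLF matches were in 4 of these 5, all but *Ovol2*, beside 49.5% of 32851 promoters. *Prdm1* also had an AP-1 match, beside 7.81%, and an ETS match, beside 35.4%. GRHL, p63, C/EBP and GATA matches were in 0 of 5, beside 2.09%, 0.712%, 10.8% and 11.2%. The 250 bases upstream of *Klf4*, chr4:55532467-55532716 on the minus strand, lie in the region that was open in all lists but WT unwounded. They are printed because they hold 9 KLF matches, several overlapping each other, in sequence with 73.6% GC. No other of the 5 available promoters held as many. Capitals again mark the matches.
*Klf4*: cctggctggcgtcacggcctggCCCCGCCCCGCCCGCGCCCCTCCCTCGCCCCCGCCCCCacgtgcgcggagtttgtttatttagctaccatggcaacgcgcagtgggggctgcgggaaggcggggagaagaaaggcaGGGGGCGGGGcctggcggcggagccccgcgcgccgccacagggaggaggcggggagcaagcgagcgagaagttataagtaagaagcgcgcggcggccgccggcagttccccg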

How the data were processed

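Per the labels, 7 RNA-seq libraries and 4 ATAC-seq samples of sorted keratinocytes were made. The RNA-seq tables hold raw counts, deposited as whole numbers for each gene symbol. The study's methods name Kallisto with mm10, whereas the tables close with tallies in the form that htseq-count writes. Which step made the counts, and whether strand was used, is not stated. In annotated span, *Zfp750* overlaps *Tbcd*, and *Gata3* overlaps *4930412O13Rik*, *9230102O04Rik* and *Gm13256*. *Ovol1*, *Ovol2* and *Cebpa* overlap annotated antisense genes. Reads in any exons that such genes share may not have been told apart, and overlap of exons was not examined. The closing tallies of uncounted reads were set aside.

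For ATAC-seq the authors trimmed reads, aligned them to mm10 with bowtie2, and called broad peaks with MACS2. Each peak has a deposited fold enrichment, a ratio over local background. It also has a −log10 p-value as deposited, and likewise a −log10 q-value deposited by the authors. The deposited score was not used.

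CPM was computed over gene entries. A quasi-likelihood fit in edgeR 4.0.16 (TMM, filterByExpr, two-sided, R 4.3.3) of 4 groups gave the WT comparison and that of wounded libraries, an additive fit that of all libraries, with Benjamini-Hochberg adjustment across 14045 genes. With 1 cKO unwounded library, a 2-fold rule on log2 CPM (prior count 2) was applied without a test. Steps were tested on simulated counts with less spread than these libraries and larger changes than the members had. That check does not show how well differences of the members' size are found. Genes came from GENCODE vM21, and regions were merged at 1 shared base.

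Named genes are all members and *Grhl3*, from each list the 3 with the smallest P in each tested comparison, those at 0 in all libraries and the most abundant, and for each member the gene with the highest r. Some of these are described, and genes picked later are stated. The members and lists were chosen with earlier results of these data known. Alternatives were RLE, DESeq2 1.42.0, the likelihood ratio test, other filters and prior counts, a replicate block, fewer libraries, and other peak thresholds and distances.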

Additional observations from a re-analysis of the deposited data

Results flagged for a closer look

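*Zfp750* and *Ehf* differed in opposite directions after wounding in WT and in the libraries labelled *Grhl3*-cKO, each wounded library lying on the same side of every unwounded library of its genotype. For *Zfp750* the mean change on TMM-scaled log2 CPM was 0.42 in WT and −0.34 in the cKO-labelled libraries, a difference of −0.76. For *Ehf* it was −0.27 in WT and 0.85 in the cKO-labelled libraries, a difference of 1.12. The difference was not tested for either gene, and both cKO values are taken from the single unwounded library that also differs from the others in *Xist* (14854 counts). That library also had the highest sum of immediate early genes, 27078 CPM. Opposite directions in every library were found for 1464 of the 14045 genes (10.4%).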

How the results depend on the processing

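No member had an adjusted p under 0.05 under any setting of the 3 tested comparisons, by edgeR or DESeq2, and none passed the 2-fold rule under any prior count, RLE or 10-count setting. Of 370 recomputed member log2 differences, 332 kept their sign, 24 took the opposite one, and 14 have no sign to compare, since the value in the fit or the alternative was 0.0 at 2 decimals. Why counts and signs moved was not tested, except that fewer libraries or genes enter some settings.

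Genes at an adjusted p under 0.05 in WT wounding (4) were 24 with DESeq2, 49 with the likelihood ratio test, 96 with no filter, and 0 with at least 10 counts in every library, with only the 4 libraries or without the cKO unwounded library (chosen after seeing the data). Leaving out each library in turn gave 0 to 29. At an unadjusted P under 0.05 there were 1117 genes with the likelihood ratio test. The 2 members were 1 with RLE, the likelihood ratio test, the 10-count filter, only 4 libraries or without the cKO unwounded library, and 0 to 3 leaving out each. Between genotypes (0 genes) the counts were 3 with DESeq2, 1 with the likelihood ratio test, 51 with no filter and 0 to 21 leaving out each. Genes at an unadjusted P under 0.05 (567) were 873 with the likelihood ratio test and 420 to 855 leaving out each, and members (2) 1 with the likelihood ratio test, the 10-count filter or only 4 libraries and 1 to 2 leaving out each. Over all libraries (5 genes) the counts were 126 with DESeq2, 117 with the likelihood ratio test, 305 with no filter, 2 with the 10-count filter, 0 without the cKO unwounded library and 0 to 119 leaving out each. The 1 member became 0 with the likelihood ratio test or the 10-count filter, and 0 to 1 leaving out each. With 10 counts in every library, 460 genes passed the 2-fold rule in cKO wounding and 536 in cKO against WT unwounded.

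Signs turned when single libraries were left out. The ranges for WT wounding were −0.12 to 0.03 for *Trp63*, −0.15 to 0.09 for *Klf5*, −0.11 to 0.95 for *Ovol1*, −0.46 to 0.54 for *Ovol2*, −0.20 to 0.14 for *Gata3* and −0.08 to 0.22 for *Prdm1*. Between genotypes they were −0.14 to 0.14 for *Trp63* (0.0 in the fit), −0.01 to 0.23 for *Klf5*, −0.39 to 0.58 for *Ovol1* and −0.13 to 0.22 for *Ehf*. Over all libraries they were −0.07 to 0.04 for *Klf5*, −0.02 to 0.49 for *Ovol1* and −0.07 to 0.10 for *Gata3*, and without the cKO unwounded library *Ovol2* was 0.08, *Gata3* −0.01 and *Ehf* −0.26. Where this leaves 1 library in a group, it is assumed to vary like the others.

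With a replicate block, genes at an adjusted p under 0.05 were 6, 0 and 4 in WT wounding, between genotypes and over all libraries, and members at an unadjusted P under 0.05 were 3, 3 and 1, with *Ovol1* (P of 0.0376 against 0.302) added in WT wounding and *Gata3* (0.0334 against 0.0571) between genotypes. The block assumes that equal replicate numbers mean a shared source. Replicate 2 of cKO unwounded and of cKO wounded cannot be a single animal, with 14854 and 25 counts of *Xist* and 0 and 3589 of the Y-linked genes. Replicate deviations of WT unwounded and WT wounded libraries correlated at 0.154 across genes, and those of WT wounded and cKO wounded at −0.0386.

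For peaks with a fold enrichment of at least 4, members with a peak were 3 in WT unwounded and 5 in WT wounded, peaks near members 3, 10, 10 and 8 over the 4 lists, and shared regions 3. With lists of equal length, WT wounded had 3 members and 3 peaks, cKO unwounded 7 peaks, cKO wounded 6 peaks, and 2 regions were shared. With 10 kb around the gene, all 10 members, *Ovol1* among them, had a peak in WT wounded and in cKO unwounded. Depth limits *Ovol2* most, at 49 to 110 counts.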

Other observations

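Near *Grhl3* itself, 2 regions were listed, each in WT wounded and in cKO unwounded only. The intronic region chr4:135565521-135565921 had a fold enrichment of 3.42 and 3.47 in these lists, and chr4:135575386-135575768, 1756 bases upstream of the start, had 4.03 and 3.28. The *Grhl3* promoter in the RefSeq table held 2 KLF matches and 0 GRHL matches.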
